A study of Mus musculus with 6 samples.

Results

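The nuclear oxidative phosphorylation subunit genes are the genes of the cell nucleus that encode structural subunits of the 4 respiratory chain complexes and of ATP synthase, which is called complex V. They were taken by symbol from the gene table of the deposited matrices: the numbered Nduf A, B, C, S and V families, Sdha to Sdhd, the Uqcr genes, the Cox4 to Cox8 subunit genes and the Atp5 genes. That rule matched 85 symbols. Cox7b2 and Cox8c were dropped with 2 UMIs each (a UMI marks 1 captured RNA molecule) against a minimum of 100 over all libraries. Ndufb1-ps was dropped for the pseudogene ending of its symbol, although it held 157515 UMIs. That was more than the 104743 of Ndufb9, the highest complex I gene kept, so complex I was counted without an abundant transcript. The remaining 82 of 32285 genes comprised 35 of complex I, 4 of complex II, 8 of complex III, 18 of complex IV and 17 of complex V. The symbol rule places Ndufa4, its relative Ndufa4l2 and Cox7a2l with complex IV. The lowest genes kept were Cox8b with 117 UMIs and Cox7a1 with 1184, and the highest was Cox4i1 with 326438.

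Complex I takes electrons from NADH and complex II from succinate. Complex III passes them through cytochrome c to complex IV, which reduces oxygen, and ATP synthase uses the proton gradient so formed. Complexes I, III, IV and V also contain subunits encoded by mitochondrial DNA, so their assembly needs both genomes, whereas complex II is nuclear throughout. Activated macrophages are known for altering their use of this pathway, and mature neutrophils are known for relying on glycolysis.

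The data were single-cell RNA profiles of CD45-selected cells from the lungs of wild type (WT) mice, whose strain the labels spell C65BL6, and of NOS1-/- (KO) mice, which lack neuronal nitric oxide synthase. All lungs were digested with Liberase and DNase, cleared of red cells and enriched for CD45, a surface protein of blood-derived cells, before 10x Genomics droplet sequencing. Mice were given either lipopolysaccharide (LPS), a bacterial cell wall component, intraperitoneally at 10 mg/kg, or vehicle, for 4 h. There was 1 WT vehicle library, 1 KO vehicle library, 2 WT LPS libraries and 2 KO LPS libraries. The labels give no age, sex, knockout allele or number of animals per library, so a p-value reflects how far single libraries vary, and that variation may be technical.

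The 6 libraries held 64428 cell barcodes with 55361477 to 115225284 UMIs each, and 20 to 35 barcodes were shared between any pair of libraries. Of these barcodes, 61736 had at least 200 genes and at most 10% mitochondrial UMIs, and 74.0 to 81.7% of each library's kept cells passed a gate on 6 fixed marker genes per cell type (at least 3 detected, at least 2 more than for any other type). Among 14 gated types, 8 had at least 30 cells in every library: neutrophils, alveolar macrophages, interstitial macrophages, classical monocytes, B cells, T cells, NK cells and endothelial cells, with 39 interstitial macrophages in the smallest library. Endothelial, stromal and epithelial gates were filled although the cells had been selected for CD45. Nos1 itself had 0 to 5 UMIs per library, too few to check the genotype labels.

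The libraries differed in sex marks. In the WT vehicle library, Y-linked transcripts were found without Xist (71.3% of alveolar macrophages), whereas alveolar macrophages of the KO vehicle library and both WT LPS libraries had Xist alone in 97.6, 95.2 and 97.0% of cells. Both KO LPS libraries were mixed, with Xist alone in 41.3 and 49.2% and Y-linked transcripts alone in 42.1 and 32.9% of alveolar macrophages. The mix in these libraries differed by cell type. Xist alone marked 61.5 and 61.5% of B cells, and Y-linked transcripts alone 6.39 and 5.96%. In classical monocytes these were 24.2 and 26.6% against 43.8 and 34.1%. Cells with Xist alone were thus a larger part of B cells than of classical monocytes there. The 6 neutrophil markers summed to 33.3 to 160.1 per 1000000 UMIs in the other cell types of vehicle libraries and to 449 to 7176 in those of LPS libraries. Sex marks thus moved with both the LPS and the genotype contrast and neutrophil RNA with LPS. Counts in cells without a UMI of Csf3r, Cxcr2, Retnlg or Mmp9 are given beside the results. Below, such a UMI is called a neutrophil receptor UMI, though not all of these genes encode receptors. What share of the cells so left out were neutrophils was not tested, and leaving out cells also lowers the UMIs tested. For the genotype contrast under LPS, counts in cells with Xist alone are also given. That choice was fitted on the LPS libraries only and lowers the UMIs tested as well. The part of sex in the LPS contrast and in its genotype difference was not tested.

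Values below are UMIs summed over the cells of a type in a library, per 1000000 UMIs (CPM) and scaled by TMM, a library scaling that assumes most genes do not change. Such a sum cannot tell more cells expressing a gene from more RNA per cell. Changes are log2 fold changes with standard errors (SE), tested with edgeR's quasi-likelihood test and Benjamini-Hochberg adjustment over all genes of the cell type, and a gene is said to have risen or fallen at an adjusted p under 0.05. The LPS contrast averages both genotypes. Of the 82 genes, 81 passed the low-count filter in some cell type and 76 in all 8.

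After LPS, under TMM scaling, more nuclear subunit genes rose than fell in lymphocytes, alveolar macrophages and classical monocytes, and they were split in both directions in neutrophils and endothelial cells. With plain library sizes rises outnumbered falls in B cells, T cells and alveolar macrophages but were about as many in NK cells and fewer in classical monocytes, as given further on. In B cells 58 of 78 tested subunit genes rose and 5 fell, where 32.1% of all genes rose and 31.9% fell. NK cells had 41 higher and 6 lower of 77 (all genes 23.3% and 20.8%), and T cells 19 higher and 1 lower of 76 (15.6% and 11.7%). Of 80 tested in alveolar macrophages, 47 rose and 1 fell (27.3% and 26.5%). Classical monocytes had 45 higher and 17 lower of 79 (31.6% and 27%). The median log2 change of the tested subunit genes was 0.56 in B cells, 0.36 in NK cells, 0.28 in classical monocytes, 0.23 in T cells and 0.22 in alveolar macrophages, beside all-gene medians between -0.04 and 0.06 in these types.

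Endothelial cells had 21 higher and 22 lower of 78 (32% and 28.9% of all genes), neutrophils 35 higher and 21 lower of 81 (29.7% and 20.1%), and interstitial macrophages 6 higher and 7 lower of 76 (18.6% and 13.5%). The median change was 0.18 in neutrophils, below the median of all genes there (0.35), and -0.02 in endothelial cells. These counts depended on the scaling. With plain library sizes the median of all genes moved to -0.91 in neutrophils and -0.62 in endothelial cells, against -0.14 to -0.32 in the other types, and 30 of 35 rises in neutrophils and 18 of 21 in endothelial cells turned to a lower value. The same happened to 10 of 45 rises in classical monocytes and to 1 each in NK cells and alveolar macrophages, but to none in B cells, T cells or interstitial macrophages, and no fall turned in any type. The counts higher and lower with plain library sizes were 50 and 8 in B cells (27.4% and 38.4% of all genes), 14 and 4 in T cells (12.7% and 16.1%), 23 and 12 in alveolar macrophages (18.7% and 38.5%), 17 and 16 in NK cells (15.3% and 33.8%) and 23 and 29 in classical monocytes (23.3% and 37.0%). They were 2 and 66 in neutrophils (9.23% and 47.8%), 1 and 67 in endothelial cells (17.3% and 53.1%) and 1 and 17 in interstitial macrophages (14.3% and 20.7%). Without cells that had a neutrophil receptor UMI, the counts higher and lower were 58 and 5 in B cells, 40 and 4 in NK cells, 13 and 1 in T cells, 29 and 15 in classical monocytes, 45 and 1 in alveolar macrophages, 21 and 22 in endothelial cells and 2 and 8 in interstitial macrophages.

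Single libraries also carried some of these counts. Without the WT vehicle library 1 gene rose and 0 fell in T cells, 31 rose in alveolar macrophages, 0 rose in interstitial macrophages and 3 fell in NK cells. Without the KO vehicle library 23 rose in neutrophils, and in interstitial macrophages 2 rose and 4 fell. T cells had 12 rises without the first WT LPS library, and interstitial macrophages had 11 falls without the second.

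**Figure D1:**
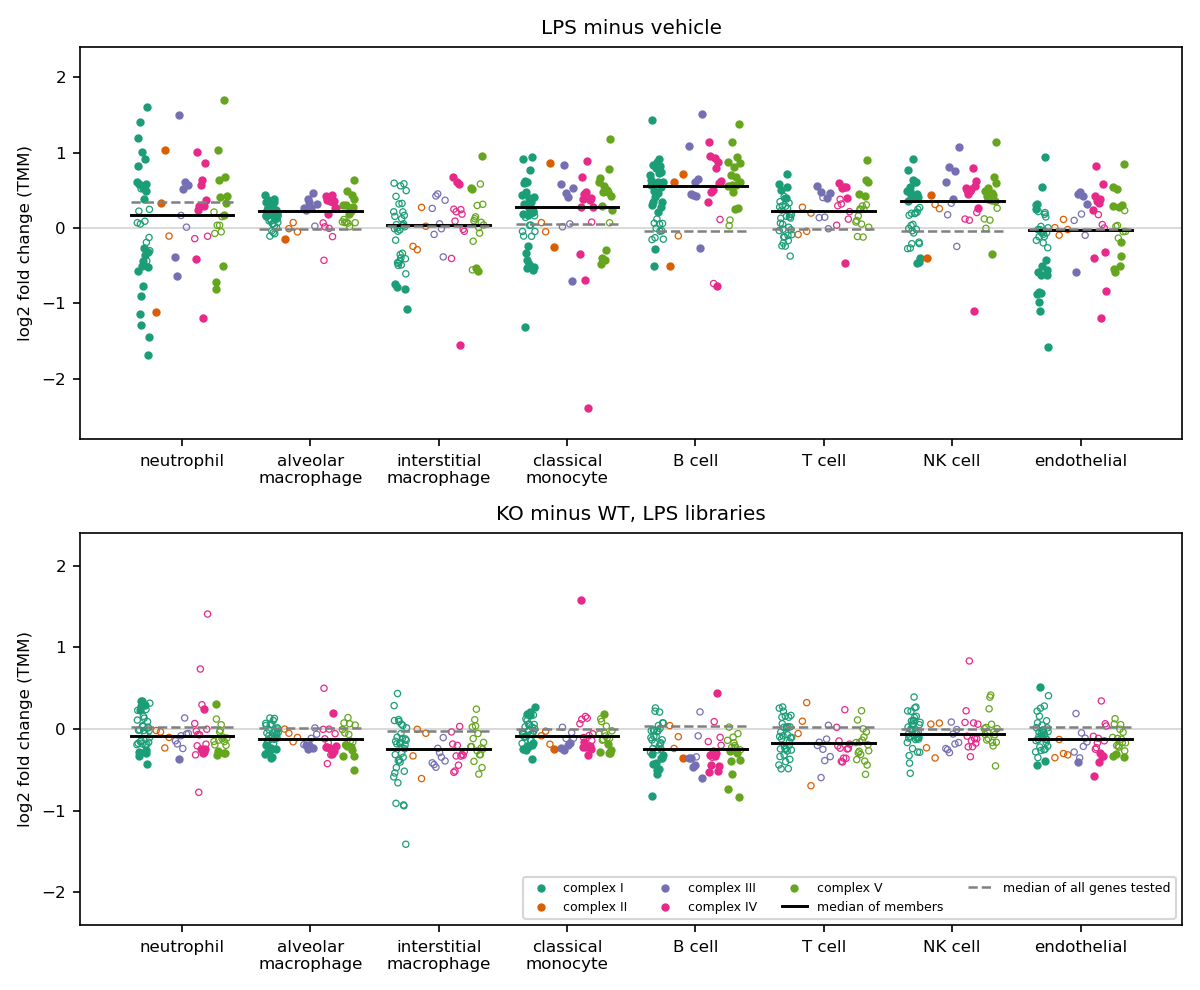
Log2 fold change (TMM scaling) of each tested nuclear subunit gene in 8 gated cell types, LPS minus vehicle above and KO minus WT among LPS libraries below; each point is 1 gene, coloured by complex, filled where the adjusted p was under 0.05, with solid lines for the median of the subunit genes and dashed lines for all genes tested. The solid line lies above the dashed one in B, NK and T cells, alveolar macrophages and classical monocytes above and below it in every type in the lower panel; with plain library sizes 30 of 35 neutrophil and 18 of 21 endothelial rises change direction. In the upper panel 8 values of low isoform genes, such as Cox6a2 in B cells, had too few vehicle UMIs for a fold and are not drawn.

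Some genes moved the same way in nearly every cell type. Under TMM scaling Atp5md, Cox6c and Cox7a2 rose in all 8 types, and Atp5k, Cox5b, Cox7c, Ndufa1, Uqcrb and Uqcrq in 7. With plain library sizes Cox6c and Cox7a2 were lower in neutrophils (-0.70 and -0.63) and endothelial cells (-0.27 and -0.22). Atp5md was then lower in neutrophils too, as given further on. Of all subunit genes, only 2 were called higher in neutrophils and 1 in endothelial cells with plain library sizes, so most of the genes named here lost these types. Altogether 31 genes rose in 5 or more types under TMM scaling. Falls in 5 or more types were found for 3: Cox7a2l in 7, and Ndufa6 and Ndufs7 in 5 each. Across types 22 genes rose in some and fell in others, Ndufa6 among them. How many of all genes moved so across types was not counted, and neither were these numbers with plain library sizes. All types came from the same 6 libraries.

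The promoters of several of these genes are shown so that genes that rose and genes that fell can be compared. RefSeq promoter windows on GRCm38.p6, from 250 bases before to 50 after the start of an annotated transcript, were found for 66 of the 82 genes and for 27025 genes in all, some with more than 1 window. The letters GCGCA, any 1 base and then GCGC, the motif of the respiratory gene activator NRF1, occurred on either strand in a window of 17 of the 66 genes (25.8%) against 5.19% of all genes. CCGGAAG, the core of ETS factors such as GABP, also occurred in 17 (25.8%) against 9.93%, and AAGATGGCG, a YY1 motif, in 7 (10.6%) against 1.64%. At least 1 of the 3 was present in 35 (53.0%) against 15.1% of all. An NF-kB motif was found for 1 subunit gene, Sdhb, against 5.14% of all. Of the 25 genes with a window that were higher in 5 or more types, 12 held one of the 3 motifs, and of the 14 that were lower in 3 or more types, 7 did. The 250 bases before the start are printed 5′ to 3′ on the gene's strand, with NRF1 matches in capitals, for Atp5k (chr5:108434400-108434649, minus strand), which rose in 7 types, and for Sdha (chr13:74350241-74350490, minus strand) and Ndufa8 (chr2:36049339-36049588, minus strand), which fell in neutrophils. Those of Cox7a2l (chr17:83514334-83514583, minus strand), the gene most often lower, and of AA467197 (chr2:122637637-122637886, plus strand), a relative of Ndufa4 described further on, held none of these letters. The transcript starts used lie 49, 40 and 68 bases inside the outermost annotated start of Atp5k, Sdha and Ndufa8, but 2997 bases inside that of Cox7a2l and 901 bases inside that of AA467197, so for these 2 genes the sequence before the outermost start was not searched. Such a start was over 250 bases inside the gene for 8 of the 66. A match is a description of the letters only.
Atp5k: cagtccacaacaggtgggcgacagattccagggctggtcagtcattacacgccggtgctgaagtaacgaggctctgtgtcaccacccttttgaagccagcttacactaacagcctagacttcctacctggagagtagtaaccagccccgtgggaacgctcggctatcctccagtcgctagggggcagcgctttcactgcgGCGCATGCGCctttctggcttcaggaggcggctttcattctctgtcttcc
Sdha: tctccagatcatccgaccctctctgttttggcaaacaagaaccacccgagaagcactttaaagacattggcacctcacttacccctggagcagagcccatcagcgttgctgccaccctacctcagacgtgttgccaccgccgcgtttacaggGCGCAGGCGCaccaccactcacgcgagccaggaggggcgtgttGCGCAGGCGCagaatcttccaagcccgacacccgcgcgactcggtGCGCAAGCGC
Ndufa8: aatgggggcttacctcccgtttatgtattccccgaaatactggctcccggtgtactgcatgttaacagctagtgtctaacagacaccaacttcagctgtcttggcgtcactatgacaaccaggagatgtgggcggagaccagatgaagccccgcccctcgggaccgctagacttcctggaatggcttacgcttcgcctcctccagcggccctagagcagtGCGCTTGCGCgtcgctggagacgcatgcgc
Cox7a2l: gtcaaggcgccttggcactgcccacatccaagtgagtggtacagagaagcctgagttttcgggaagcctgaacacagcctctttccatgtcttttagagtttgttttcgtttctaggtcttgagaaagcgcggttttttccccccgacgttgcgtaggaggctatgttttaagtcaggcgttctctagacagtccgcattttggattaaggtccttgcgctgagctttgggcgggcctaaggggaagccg
AA467197: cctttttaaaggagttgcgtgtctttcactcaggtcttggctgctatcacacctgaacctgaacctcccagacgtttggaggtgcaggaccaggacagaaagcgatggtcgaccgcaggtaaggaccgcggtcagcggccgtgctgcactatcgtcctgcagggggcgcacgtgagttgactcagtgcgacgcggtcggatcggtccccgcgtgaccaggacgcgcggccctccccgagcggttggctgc
The NRF1 letters began 50 bases before the start in Atp5k, 98, 55 and 10 bases before it in Sdha and 30 bases before it in Ndufa8. Windows with the NRF1 letters thus belonged to genes that rose and to genes that fell.

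Complex I genes moved in both directions under TMM scaling, with the most falls in neutrophils and endothelial cells. In neutrophils 37.1% of them fell, against 20.1% of all genes. In endothelial cells 34.3% fell, near the 28.9% of all genes, and 11.4% rose, against 32% of all genes. The shares of all genes in each type, given above, also apply to the counts of the other complexes below. The gene counts higher and lower, of 35 complex I genes, were 23 and 2 in B cells, 14 and 3 in NK cells, 5 and 0 in T cells, 18 and 8 in classical monocytes, 21 and 0 in alveolar macrophages, 12 and 13 in neutrophils and 4 and 12 in endothelial cells. Interstitial macrophages had 0 higher and 4 lower. On plain library sizes they were 17 and 5 in B cells, 5 and 11 in NK cells, 4 and 3 in T cells, 6 and 15 in classical monocytes, 8 and 5 in alveolar macrophages, 1 and 28 in neutrophils, 1 and 33 in endothelial cells and 0 and 11 in interstitial macrophages. Ndufa12, an accessory subunit, in B cells stood at 68.1 and 79.2 CPM in the WT and KO vehicle libraries, 266 and 259 CPM in the WT LPS libraries and 143 and 155 CPM in the KO LPS libraries. All 4 LPS libraries lay above both vehicle libraries, and the KO pair lay below the WT pair. The LPS change was 1.43 ± 0.08 (SE, adjusted p = 2.61e-09), and in classical monocytes the gene rose by 0.92 ± 0.10.

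Ndufs4, an accessory subunit whose loss causes complex I deficiency, in neutrophils measured 25.1 and 25.6 CPM in the WT and KO vehicle libraries, 92.1 and 86.7 CPM in the WT LPS libraries and 66.1 and 66.8 CPM in the KO LPS libraries. The LPS libraries did not overlap the vehicle ones, and the change was 1.60 ± 0.11 (SE, adjusted p = 1.23e-10), but only 0.34 with plain library sizes. Ndufs4 also rose in classical monocytes, by 0.94 ± 0.07 (SE, adjusted p = 5.18e-07). In NK cells Ndufb2, a membrane-arm subunit, rose by 0.91 ± 0.12 (SE, adjusted p = 2.82e-05), and in T cells Ndufc1 rose by 0.72 ± 0.13 (SE, adjusted p = 0.00371). Ndufs3, a core subunit, was higher in endothelial cells under LPS at 54.7 (WT) and 52.1 CPM (KO) with vehicle, 116 and 119.7 CPM in WT with LPS, and 94.6 and 83.4 CPM in KO with LPS. The 2 conditions did not overlap, with a change of 0.94 ± 0.11 (SE, adjusted p = 4.04e-06) that was 0.34 with plain library sizes.

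Ndufs7, a core subunit that carries an iron-sulfur cluster near the quinone site, was among the deepest falls. In neutrophils it went from 53.1 (WT) and 52.4 CPM (KO) with vehicle to 16.1 and 16.6 CPM in WT and 16.7 and 16.2 CPM in KO with LPS. Every LPS library was below both vehicle libraries, with a change of -1.69 ± 0.11 (SE, adjusted p = 2.99e-11). Smaller falls were found in interstitial macrophages (-0.81 ± 0.24 SE, adjusted p = 0.0257), endothelial cells (-0.56 ± 0.10), classical monocytes (-0.55 ± 0.09) and NK cells (-0.45 ± 0.13 SE, adjusted p = 0.0105). Ndufa8, an accessory subunit, fell in neutrophils from 46.9 (WT) and 55.7 CPM (KO) with vehicle to 20.0 and 17.9 CPM in WT and 23.0 and 23.4 CPM in KO with LPS. The groups did not overlap and the change was -1.29 ± 0.11 (SE, adjusted p = 2.39e-09).

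Ndufa6, an accessory subunit of the LYR family, changed in opposite directions by cell type. In classical monocytes it stood at 325 and 315 CPM in the WT and KO vehicle libraries, 132 and 124 CPM in the WT LPS libraries and 129 and 132 CPM in the KO LPS libraries, a change of -1.31 ± 0.06 (adjusted p = 5.31e-09). It also fell in neutrophils (-1.14 ± 0.08), endothelial cells (-0.85 ± 0.11), interstitial macrophages (-0.78 ± 0.20) and B cells (-0.51 ± 0.08 SE, adjusted p = 7.01e-05). Alveolar macrophages had 174 and 181 CPM in the WT and KO vehicle libraries, 233 and 210.2 CPM in the WT LPS libraries and 199 and 203 CPM in the KO LPS libraries. All 4 LPS libraries there were above both vehicle libraries, a rise of 0.25 ± 0.05 (SE, adjusted p = 0.00182). Whether the responses of these cell types differed was not tested.

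In endothelial cells the largest complex I fall was that of Ndufv3, an accessory subunit of the NADH-binding module, at 90.5 and 82.2 CPM in the WT and KO vehicle libraries, 27.4 and 22.7 CPM in the WT LPS libraries and 33.1 and 33.2 CPM in the KO LPS libraries. The groups were well separated, with a change of -1.58 ± 0.12 (SE, adjusted p = 2.63e-08). In interstitial macrophages Ndufv3 fell by 1.07 ± 0.23 (SE, adjusted p = 0.00454). Ndufb10, a membrane-arm subunit, was 139 (WT) and 137 CPM (KO) with vehicle, 47.5 and 59.3 CPM in WT with LPS, and 80.6 and 70.6 CPM in KO with LPS in endothelial cells. Both conditions were apart there as well (-1.10 ± 0.11 SE, adjusted p = 4.15e-07). The catalytic core genes Ndufs1 and Ndufv1 mostly did not pass the test: Ndufv1 rose in alveolar macrophages (0.20, adjusted p = 0.00641) and classical monocytes (0.42, adjusted p = 0.0243), and Ndufs1 in classical monocytes (0.34, adjusted p = 0.0231) and neutrophils (0.58, adjusted p = 0.0121; -0.69 with plain library sizes).

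Complex II genes did not move as a unit. Sdha, the flavoprotein that oxidises succinate, fell in B cells, NK cells, alveolar macrophages and neutrophils. In neutrophils Sdha went from 40.8 (WT) and 37.9 CPM (KO) with vehicle to 18.7 and 17.8 CPM in WT and 17.9 and 18.2 CPM in KO with LPS. All LPS libraries were lower, with a change of -1.12 ± 0.11 (SE, adjusted p = 5.48e-08). In B cells the change was -0.51 ± 0.09 (SE, adjusted p = 0.000227), in NK cells -0.39 (adjusted p = 0.0292) and in alveolar macrophages -0.15 ± 0.05 (SE, adjusted p = 0.0192), where the LPS libraries ranged only from 119.7 to 121.1 CPM against 132 and 134 CPM with vehicle.

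Sdhb, the iron-sulfur subunit, rose in B cells (0.62 ± 0.08 SE, adjusted p = 1.34e-05) and NK cells (0.44, adjusted p = 0.00791), and in neutrophils (0.33, adjusted p = 0.00691) only under TMM, since with plain library sizes it was -0.94. Sdhc, a membrane anchor, rose in classical monocytes from 36.6 (WT) and 36.5 CPM (KO) with vehicle to 66.2 and 75.4 CPM in WT and 62.1 and 62.1 CPM in KO with LPS, without overlap of the conditions (0.86 ± 0.12 SE, adjusted p = 6.75e-05), and in neutrophils by 1.04 ± 0.20, which was -0.23 with plain library sizes. Sdhd, the other anchor, rose in B cells (0.71 ± 0.10 SE, adjusted p = 2.62e-05) and fell in classical monocytes (-0.26, adjusted p = 0.0237). Acod1 encodes the enzyme that makes itaconate, an inhibitor of succinate dehydrogenase. It was 31.3 and 81.4 CPM in the WT and KO vehicle libraries, 2479 and 2295 CPM in the WT LPS libraries and 1365 and 1394 CPM in the KO LPS libraries in neutrophils, a rise of 5.17 ± 0.11, and in classical monocytes the plain CPM ratio of LPS to vehicle was 1579 (95% counting interval 437 to 13039, from 2 vehicle UMIs). With no vehicle UMI, B cells, NK cells, endothelial cells and interstitial macrophages had at least 214-, 151-, 74.6- and 68.0-fold higher plain CPM under LPS (floor of 3 UMIs over both vehicle libraries). These bounds cover counting error only. Neutrophils express Acod1 strongly: in LPS libraries its plain CPM was 2.44 to 4.40% of the neutrophil level in B cells, 4.82 to 7.14% in NK cells, 2.66 to 4.24% in endothelial cells, 16.7 to 31.9% in interstitial macrophages and 48.5 to 60.5% in classical monocytes. The 6 neutrophil markers there were at 0.326 to 1.42%, 1.04 to 4.05%, 0.263 to 0.709%, 0.319 to 0.672% and 0.978 to 1.399% of theirs. The part of neutrophil RNA in the Acod1 values was not tested.

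Complex III genes rose more often than they fell under TMM scaling: 7 of 8 rose in B cells (1 fell), 7 in alveolar macrophages, 5 in NK cells, 5 in classical monocytes (1 fell), 4 in T cells, 4 in endothelial cells (1 fell), 4 in neutrophils (2 fell) and 0 in interstitial macrophages. Plain library sizes gave counts higher and lower of 7 and 1 in B cells, 4 and 1 in alveolar macrophages, 4 and 1 in NK cells, 3 and 3 in classical monocytes, 2 and 0 in T cells, 0 and 5 in endothelial cells, 0 and 7 in neutrophils and 0 and 1 in interstitial macrophages. Uqcrq, a small accessory subunit, stood in B cells at 135 and 147 CPM in the WT and KO vehicle libraries, 513 and 475 CPM in the WT LPS libraries and 315 and 337 CPM in the KO LPS libraries. The LPS libraries were all above the vehicle libraries, by 1.51 ± 0.08 (SE, adjusted p = 1.37e-09), and the KO LPS pair was below the WT LPS pair. In NK cells Uqcrq rose by 1.08 ± 0.10 (SE, adjusted p = 8.14e-07).

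Uqcrb, which contacts the quinone site, in neutrophils had 17.3 and 22.9 CPM in the WT and KO vehicle libraries, 63.0 and 64.4 CPM in the WT LPS libraries and 51.1 and 48.0 CPM in the KO LPS libraries. The conditions did not overlap (1.498 ± 0.12 SE, adjusted p = 1.36e-09), but with plain library sizes the change was 0.23 and did not pass the test. In classical monocytes the values were 175 (WT) and 205 CPM (KO) with vehicle, 373 and 368 CPM in WT with LPS, and 320.5 and 298 CPM in KO with LPS, again without overlap (0.84 ± 0.06 SE, adjusted p = 4.87e-07). Uqcrfs1, the Rieske iron-sulfur protein, was among the larger rises in alveolar macrophages, from 132 (WT) and 136 CPM (KO) with vehicle to 208 and 194 CPM in WT and 172 and 169.5 CPM in KO with LPS. Its LPS libraries were all above the vehicle ones (0.47 ± 0.05 SE, adjusted p = 8.78e-06). The core subunit Uqcrc1 rose in B cells (0.60 ± 0.09), alveolar macrophages (0.35 ± 0.05), classical monocytes (0.46 ± 0.08) and endothelial cells (0.48 ± 0.12, -0.12 with plain library sizes). Uqcrh, the hinge protein near cytochrome c, moved the other way in classical monocytes, from 683 (WT) and 638 CPM (KO) with vehicle to 412 and 409.6 CPM in WT and 393 and 405 CPM in KO with LPS. All 4 LPS libraries were below the vehicle ones (-0.70 ± 0.05 SE, adjusted p = 1.89e-07).

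Complex IV genes rose in larger numbers than they fell in every cell type under TMM scaling: 11 against 1 of 14 in B cells, 9 against 1 of 13 in NK cells, 5 against 1 of 12 in T cells, 9 against 0 of 16 in alveolar macrophages, 9 against 3 of 15 in classical monocytes, 3 against 1 of 12 in interstitial macrophages, 9 against 2 of 17 in neutrophils and 7 against 4 of 14 in endothelial cells. On plain library sizes this was 11 against 1 in B cells, 4 against 1 in NK cells and in T cells, 6 against 2 in alveolar macrophages, 4 against 4 in classical monocytes, 0 against 2 in interstitial macrophages, 0 against 12 in neutrophils and 0 against 11 in endothelial cells. Cox7a2, the broadly expressed isoform of subunit VIIa, had 208 and 238 CPM in the WT and KO vehicle libraries, 465 and 455 CPM in the WT LPS libraries and 386 and 351 CPM in the KO LPS libraries in classical monocytes. The conditions did not overlap, a rise of 0.89 ± 0.06 (SE, adjusted p = 3.53e-07). Over the 8 types its change ran from 0.39 in endothelial cells to 0.89 in classical monocytes, and that of Cox6c, another small subunit, from 0.33 to 0.93 in B cells. With plain library sizes both changed sign in endothelial cells and neutrophils, as given above.

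In interstitial macrophages, the type with the fewest cells, Cox5a, an early assembled nuclear subunit, went from 235 (WT) and 237 CPM (KO) with vehicle to 371 and 432 CPM in WT and 378 and 327 CPM in KO with LPS. The LPS libraries were all higher (0.67 ± 0.19 SE, adjusted p = 0.0187). Cox6c rose there by 0.60 (adjusted p = 0.0297). Cox5b, the zinc-binding subunit, in endothelial cells had 146 and 171 CPM in the WT and KO vehicle libraries, 326 and 281 CPM in the WT LPS libraries and 276 and 239 CPM in the KO LPS libraries. The groups did not overlap (0.83 ± 0.10 SE, adjusted p = 2.67e-06), though with plain library sizes the change was 0.22 and not called. Cox4i1, the ubiquitous form of subunit IV, fell in classical monocytes (-0.34 ± 0.05 SE, adjusted p = 8e-05) and rose in B cells (0.35 ± 0.08) and, under TMM but not with plain library sizes (-0.36), in endothelial cells (0.24 ± 0.07).

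Cox7a2l ran opposite to its relative Cox7a2. It encodes SCAFI, a protein related to subunit VIIa that joins complexes III and IV in a supercomplex, and lies on chr17:83501918-83517330 (GRCm38, minus strand; ENSMUSG00000024248). In classical monocytes it stood at 483 and 421 CPM in the WT and KO vehicle libraries, 85.2 and 91.4 CPM in the WT LPS libraries and 78.1 and 90.1 CPM in the KO LPS libraries. The 4 LPS libraries lay far below both vehicle libraries and the genotypes overlapped, giving the largest fall of any subunit gene in any type (-2.39 ± 0.07 SE, adjusted p = 1.71e-10, or 5.26-fold lower). Interstitial macrophages had 419.7 (WT) and 335 CPM (KO) with vehicle, 125 and 127 CPM in WT with LPS, and 157 and 96.8 CPM in KO with LPS. Again no LPS library reached a vehicle one (-1.55 ± 0.21 SE, adjusted p = 0.0002). Cox7a2l in neutrophils moved from 131 (WT) and 108 CPM (KO) with vehicle to 47.4 and 48.0 CPM in WT and 56.1 and 56.9 CPM in KO with LPS. In endothelial cells it moved from 227 (WT) and 216 CPM (KO) with vehicle to 87.9 and 83.2 CPM in WT and 103 and 116 CPM in KO with LPS. NK cells moved from 276 (WT) and 263 CPM (KO) with vehicle to 118 and 127 CPM in WT and 136 and 120.1 CPM in KO with LPS. The changes were -1.20 ± 0.08 (SE, adjusted p = 5.72e-11), -1.20 ± 0.09 (SE, adjusted p = 1.49e-08) and -1.10 ± 0.11 (SE, adjusted p = 1.3e-06), with separate vehicle and LPS libraries in each.

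In B cells Cox7a2l was 389 and 338 CPM in the WT and KO vehicle libraries, 188 and 176 CPM in the WT LPS libraries and 240.3 and 253 CPM in the KO LPS libraries. The LPS libraries were below the vehicle ones (-0.78 ± 0.08 SE, adjusted p = 5.4e-07), and the KO pair was above the WT pair. T cells measured 624 (WT) and 485 CPM (KO) with vehicle, 374 and 360.1 CPM in WT with LPS, and 398 and 470.0 CPM in KO with LPS, a change of -0.46 ± 0.11 (SE, adjusted p = 0.0139), and in that type the call was lost without the WT vehicle library (-0.32) or without the second WT LPS library (-0.44). Alveolar macrophages had 319 (WT) and 310.1 CPM (KO) with vehicle, 259.9 and 284 CPM in WT with LPS, and 299 and 323 CPM in KO with LPS. Those libraries overlapped and the change of -0.12 ± 0.05 (SE, adjusted p = 0.0906) did not pass the test. Plain library sizes gave the same sign for Cox7a2l in all 8 types and a call in alveolar macrophages (-0.26).

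**Figure D2:**
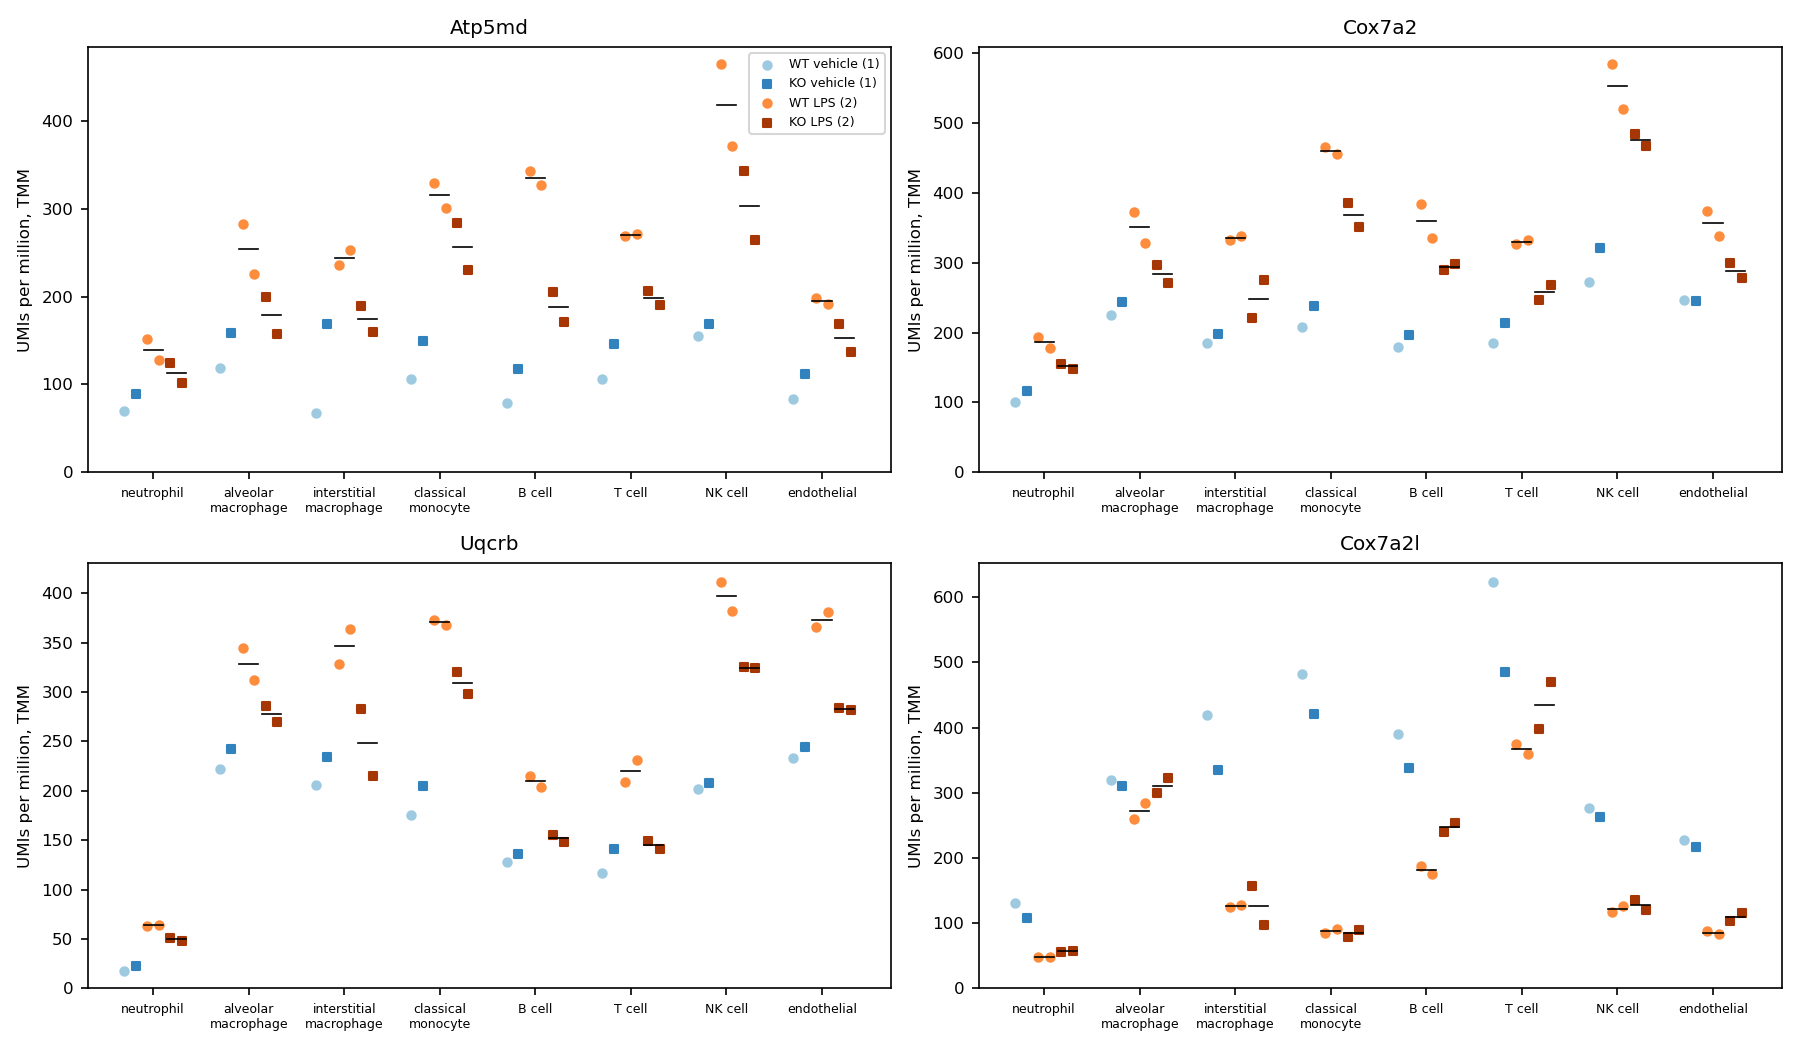
CPM (TMM) of Atp5md, Cox7a2, Uqcrb and Cox7a2l in each library of 8 gated cell types; circles are WT and squares KO, blue is vehicle (1 library each) and orange to brown LPS (2 each), with short lines at the mean of each LPS pair. In classical monocytes Cox7a2l falls from 421 to 483 with vehicle to 78.1 to 91.4 with LPS while Cox7a2 climbs; with plain library sizes Cox7a2 is lower under LPS in neutrophils and endothelial cells, and so is Uqcrb in endothelial cells.

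Complex V genes likewise rose more often than they fell under TMM scaling: 15 against 0 of 17 in B cells, 12 against 1 in NK cells, 5 against 0 in T cells, 10 against 0 in alveolar macrophages, 12 against 4 in classical monocytes, 3 against 2 in interstitial macrophages, 8 against 3 in neutrophils and 6 against 5 in endothelial cells. Plain library sizes gave 13 against 0 in B cells, 4 against 2 in NK cells, 4 against 0 in T cells, 5 against 1 in alveolar macrophages, 9 against 5 in classical monocytes, 1 against 3 in interstitial macrophages, 1 against 16 in neutrophils and 0 against 14 in endothelial cells. Atp5md encodes a small membrane-sector subunit, also called DAPIT, and lies on chr19:47083464-47090647 (GRCm38, minus strand; ENSMUSG00000071528). In B cells it was 78.9 and 117 CPM in the WT and KO vehicle libraries, 342 and 327 CPM in the WT LPS libraries and 205 and 171 CPM in the KO LPS libraries. The LPS libraries did not reach down to the vehicle libraries, and the KO pair lay between the vehicle and WT LPS libraries (1.38 ± 0.09 SE, adjusted p = 9.66e-09). NK cells went from 155 (WT) and 169 CPM (KO) with vehicle to 464 and 372 CPM in WT and 343 and 264 CPM in KO with LPS. Classical monocytes went from 106 (WT) and 149 CPM (KO) with vehicle to 329.7 and 300.5 CPM in WT and 283 and 231 CPM in KO with LPS. T cells went from 106 (WT) and 146 CPM (KO) with vehicle to 269 and 271 CPM in WT and 207 and 190.3 CPM in KO with LPS. These were rises of 1.14 ± 0.13 (SE, adjusted p = 5.71e-06), 1.18 ± 0.10 (SE, adjusted p = 2.05e-06) and 0.90 ± 0.12 (SE, adjusted p = 0.000574), without overlap between conditions.

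In alveolar macrophages Atp5md measured 119 and 159 CPM in the WT and KO vehicle libraries, 283 and 225 CPM in the WT LPS libraries and 199.8 and 158 CPM in the KO LPS libraries. Here the second KO LPS library was level with the KO vehicle library, and the change averaged over genotypes was 0.64 ± 0.10 (SE, adjusted p = 0.000169). Interstitial macrophages had 67.2 (WT) and 169 CPM (KO) with vehicle, 236 and 253 CPM in WT with LPS, and 189.9 and 160.3 CPM in KO with LPS, so that 1 KO LPS library lay below the KO vehicle library (0.96 ± 0.22 SE, adjusted p = 0.00614). In endothelial cells the rise was 0.84 ± 0.11 (SE, adjusted p = 6.45e-06), but 0.24 and not called with plain library sizes, and in neutrophils 0.68 (adjusted p = 2.63e-05), with -0.59 under plain library sizes.

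Atp5k, the e subunit of the membrane sector, in neutrophils stood at 24.6 and 27.9 CPM in the WT and KO vehicle libraries, 97.0 and 90.5 CPM in the WT LPS libraries and 81.6 and 70.5 CPM in the KO LPS libraries. The conditions were far apart, with the largest rise there among subunit genes above 50 CPM (1.69 ± 0.12 SE, adjusted p = 1.98e-10; 0.43 with plain library sizes). Atp5k also rose in T cells by 0.63 ± 0.15 (SE, adjusted p = 0.0119). Atp5g1, one of 3 genes for the c-ring subunit, showed the largest rise in alveolar macrophages after Atp5md among genes above 50 CPM, from 261 (WT) and 254 CPM (KO) with vehicle to 402 and 374 CPM in WT and 337 and 333 CPM in KO with LPS. The conditions did not overlap (0.48 ± 0.05 SE, adjusted p = 5.76e-06). Of the catalytic subunits, Atp5b rose in B cells from 255 (WT) and 247 CPM (KO) with vehicle to 603 and 588 CPM in WT and 362 and 351 CPM in KO with LPS, with all LPS libraries above vehicle (0.88 ± 0.08 SE, adjusted p = 1.8e-07). Atp5a1 rose in B cells (0.55 ± 0.08), classical monocytes (0.61 ± 0.05), interstitial macrophages (0.53 ± 0.18 SE, adjusted p = 0.0437) and endothelial cells (0.55 ± 0.08, -0.05 with plain library sizes).

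Counting without a known strand setting limits some of these values, because 27 of the 82 genes share exon bases with a gene on the opposite strand and none with a gene on the same strand. Atp5md (Taf5), Atp5a1 (Haus1), Cox6c (Vps13b), Cox4i1 (Emc8), Cox6a2 (Itgad), Ndufa4l2 (Shmt2), Ndufs1 (Eef1b2), Ndufb11 (Rbm10) and Ndufb2 (Braf) are among them, as are Uqcrb and Cox5a. The strand setting of the counting is not stated, so reads of the partner gene in these values cannot be told apart.

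Ndufa4, a complex IV subunit, has a paralog, AA467197, whose human counterpart is known as C15orf48 or NMES1 and whose product can take the place of the Ndufa4 protein. AA467197 is no subunit gene under the symbol rule and is given because of that pairing; it lies on chr2:122636986-122641191 (GRCm38, plus strand; ENSMUSG00000033213). In classical monocytes AA467197 stood at 0.62 and 0.935 CPM in the WT and KO vehicle libraries, 1369.8 and 1449.8 CPM in the WT LPS libraries and 531 and 488 CPM in the KO LPS libraries. Vehicle libraries held 3 UMIs together, the LPS libraries 35591, and the ratio of plain CPM was 1248 (95% counting interval 427 to 6053). In neutrophils AA467197 had 40.2 (WT) and 45.7 CPM (KO) with vehicle, 2805 and 2569.9 CPM in WT with LPS, and 1505 and 1392 CPM in KO with LPS, a rise of 5.52 ± 0.12 (adjusted p = 5.3e-18). Endothelial cells had 1.08 (WT) and 0 CPM (KO) with vehicle, 549 and 596 CPM in WT with LPS, and 133 and 130.4 CPM in KO with LPS, a plain ratio of 596 (165 to 4919) from 2 vehicle UMIs. The WT LPS libraries were the highest in each of these types and the KO LPS libraries came next.

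AA467197 also rose in interstitial macrophages (4.58 ± 0.36), alveolar macrophages (4.07 ± 0.09), B cells (3.98 ± 0.26) and T cells (3.79 ± 0.20), and in NK cells its plain ratio was 130 (55.6 to 400 from 5 vehicle UMIs). Neutrophils express it strongly. In LPS libraries its plain CPM elsewhere was 41.5 to 71.7% of the neutrophil level in classical monocytes, 16.3 to 23.5% in interstitial macrophages and 9.83 to 27.3% in endothelial cells, while the 6 neutrophil markers were at 0.263 to 4.05% of theirs over the 7 other types. In B cells and alveolar macrophages it was at 2.01 to 5.80% and 2.82 to 4.89%. Without cells bearing a neutrophil receptor UMI, the change was 4.18 in interstitial macrophages, 3.47 in alveolar macrophages, 3.57 in B cells and 3.64 in T cells.

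Ndufa4 itself changed by much smaller amounts. In classical monocytes Ndufa4 stood at 295 and 330.2 CPM in the WT and KO vehicle libraries, 402 and 372 CPM in the WT LPS libraries and 377 and 366 CPM in the KO LPS libraries. Each LPS library was above both vehicle libraries (0.28 ± 0.06 SE, adjusted p = 0.0015), although with plain library sizes the change was -0.01. Neutrophils had 57.5 (WT) and 56.8 CPM (KO) with vehicle, 50.2 and 55.9 CPM in WT with LPS, and 52.8 and 53.1 CPM in KO with LPS. All 4 LPS libraries were slightly below vehicle and the change of -0.11 ± 0.10 (SE, adjusted p = 0.387) did not pass the test. In B cells Ndufa4 rose from 237 (WT) and 282 CPM (KO) with vehicle to 429.9 and 424 CPM in WT and 358 and 387 CPM in KO with LPS, without overlap (0.62 ± 0.08 SE, adjusted p = 7.18e-06), and it fell in endothelial cells (-0.31, adjusted p = 0.00458).

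**Figure D3:**
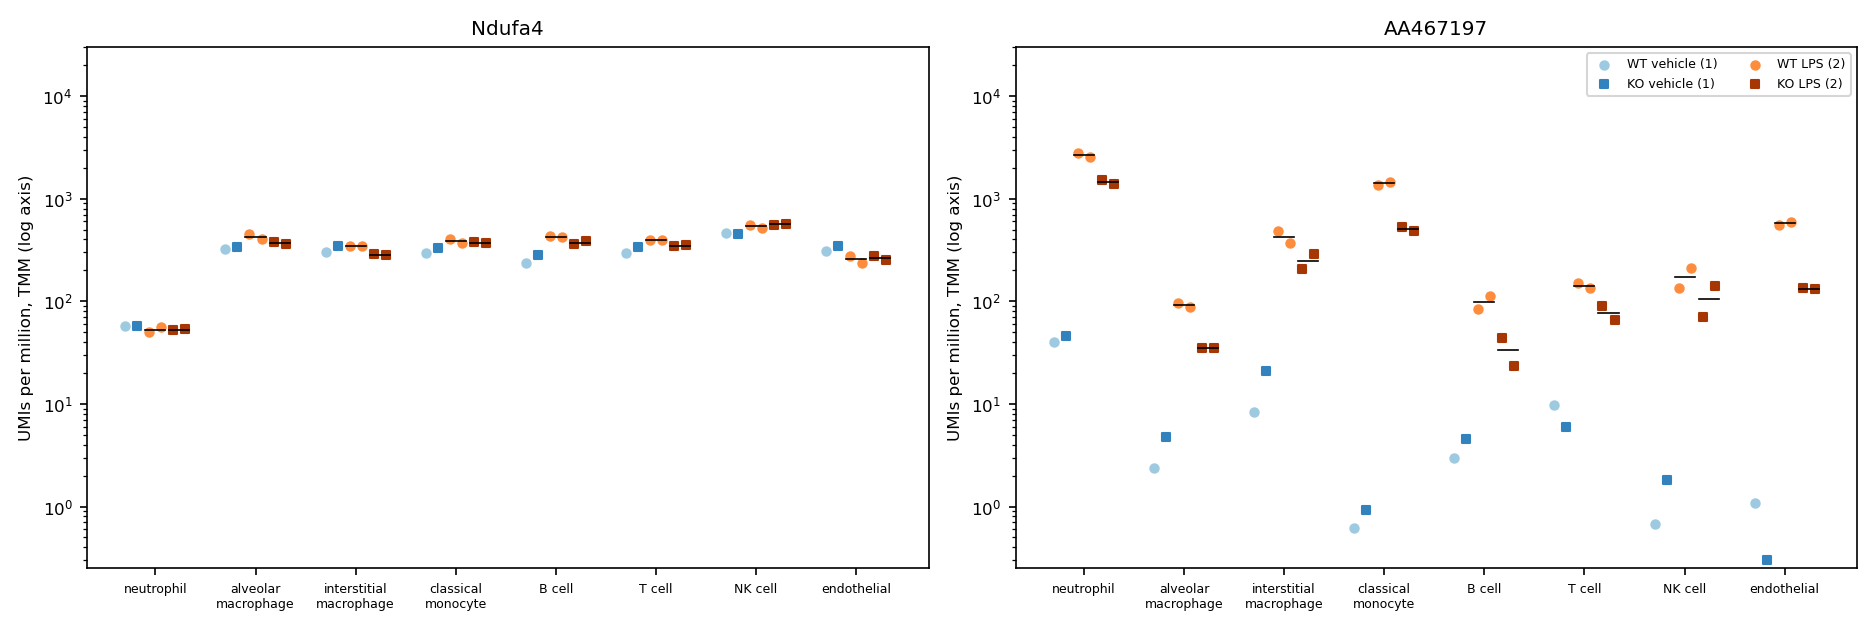
CPM (TMM, log axis) of Ndufa4 and its paralog AA467197 in each library of 8 gated cell types; circles are WT and squares KO, blue vehicle and orange to brown LPS, and the KO vehicle value of 0 for AA467197 in endothelial cells is drawn at the bottom edge. AA467197 in classical monocytes goes from under 1 with vehicle to 488 to 1450 with LPS, while Ndufa4 stays between 295 and 402.

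Tissue-restricted isoforms of complex IV were concentrated in particular gates. Over all 6 libraries Cox4i2, the lung and oxygen-responsive form of subunit IV, was at 90.0 plain CPM in endothelial cells (95% counting interval 85.0 to 95.3) and 115 in stromal cells (100.3 to 132), and at most 3.82 in any other type. Ndufa4l2, a hypoxia-inducible relative of Ndufa4, was likewise at 39.5 in endothelial and 47.9 in stromal cells. Cox6a2, known as the muscle and heart form of subunit VIa, was at 1044 plain CPM in plasmacytoid dendritic cells (958 to 1136). That rested on 541 UMIs, of which 8 and 93 came from the WT and KO vehicle libraries, 183 and 103 from the WT LPS and 100 and 54 from the KO LPS libraries, and its gate held as few as 4 cells in a library. Cox6b2, known as the testis form of subunit VIb, was at 52.8 in alveolar macrophages (51.2 to 54.3) and 66.9 in stromal cells. Cox7a1, the other muscle form, peaked at 6.96 in alveolar macrophages. Cox8b rested on 11 UMIs in stromal cells (5.98 CPM) and did not exceed 0.388 elsewhere.

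**Figure D4:**
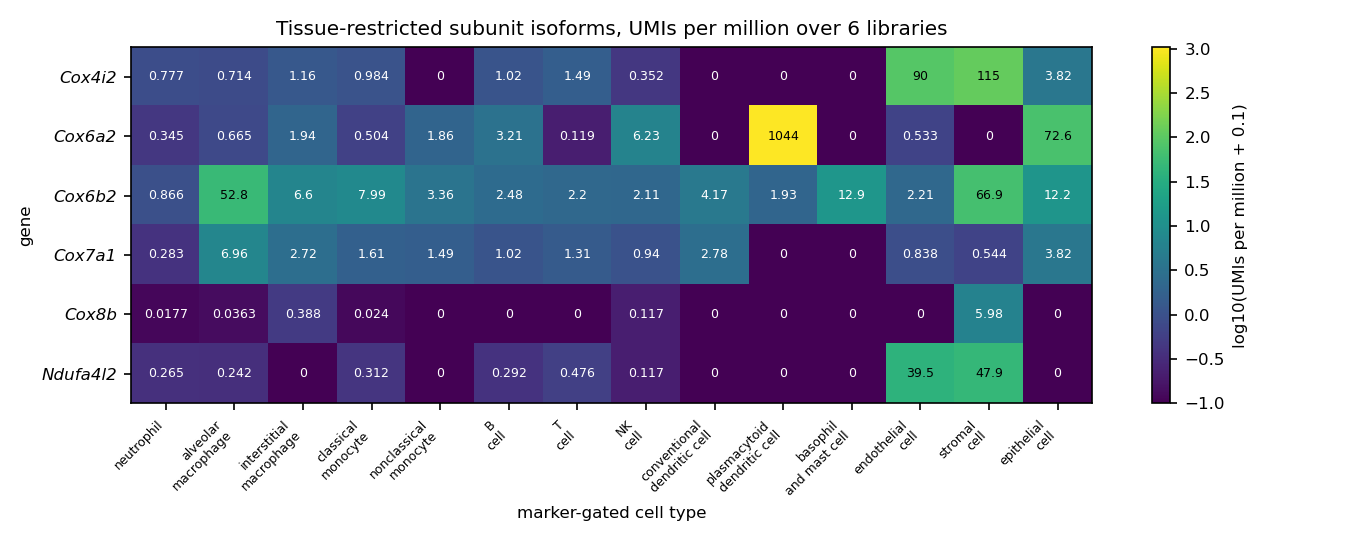
Plain CPM, summed over 6 libraries, of 6 tissue-restricted isoforms (rows) in 14 gated cell types (columns); colour is log10 of CPM plus 0.1 and the printed number is CPM. Cox6a2 reaches 1044 in plasmacytoid dendritic cells, and Cox4i2 and Ndufa4l2 are highest in the endothelial and stromal gates.

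Among these isoforms, Cox4i2 in endothelial cells measured 128 and 98.0 CPM in the WT and KO vehicle libraries, 92.5 and 114 CPM in the WT LPS libraries and 73.3 and 64.4 CPM in the KO LPS libraries. Vehicle and LPS libraries overlapped, with a change of -0.40 ± 0.11 (SE, adjusted p = 0.00567). Ndufa4l2 went from 72.6 (WT) and 44.5 CPM (KO) with vehicle to 26.7 and 35.9 CPM in WT and 36.4 and 26.1 CPM in KO with LPS in the same cells. All LPS libraries were below vehicle (-0.83 ± 0.16 SE, adjusted p = 0.000357). Cox6b2 in alveolar macrophages showed 49.3 (WT) and 55.4 CPM (KO) with vehicle, 54.6 and 49.2 CPM in WT with LPS, and 53.3 and 50.4 CPM in KO with LPS. Its conditions overlapped (-0.01 ± 0.06), while in classical monocytes, at lower levels, it fell by 0.68 ± 0.20 (adjusted p = 0.0133). Cox4i2 passed the test in neutrophils too, on 0 UMIs in the vehicle and 88 in the LPS libraries, at 1.30 CPM or less.

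Between genotypes under LPS and with TMM scaling, more subunit genes were lower than higher in KO libraries in 5 cell types, most often in B cells and alveolar macrophages. In neutrophils and endothelial cells the share that was lower was near that of all genes. In B cells 31 of 78 were lower in KO and 1 was higher, where 14.8% of all genes were lower and 12.4% higher. Alveolar macrophages had 26 lower and 1 higher of 80 (17.1% and 13.3%), classical monocytes 24 lower and 6 higher of 79 (15.6% and 14.3%), neutrophils 14 lower and 7 higher of 81 (12.3% and 10.8%) and endothelial cells 10 lower and 1 higher of 78 (9.78% and 7.28%). No subunit gene passed edgeR's test in T cells (0.322% of all genes lower, 0.161% higher), NK cells (1.32% and 1.27%) or interstitial macrophages (0.0456% and 0%). In these 15, 9 and 11 genes had an unadjusted p under 0.05, and DESeq2 called 0. The median difference ran from -0.06 in NK cells to -0.24 in B cells and interstitial macrophages.

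These genotype counts depended on the fit and on the cells. With plain library sizes 17 were lower and 4 higher in B cells (10.3% and 16.9% of all genes), 6 and 7 in alveolar macrophages (9.95% and 19.9%), 1 and 18 in classical monocytes (8.91% and 25.1%), 2 and 5 in endothelial cells (5.97% and 11.6%) and 0 and 38 in neutrophils (4.41% and 31.2%), where 10 of the 14 changed sign. Only in B cells did the lower genes still outnumber the higher ones. DESeq2 called 14, 9, 2, 0 and 4 lower. In cells with Xist alone, which match the sex mark of the WT LPS libraries, 14 were lower in B cells and 0 in the other types. Without cells carrying a neutrophil receptor UMI the counts were 31 in B cells, 17 in alveolar macrophages, 1 in classical monocytes and 6 in endothelial cells. Leaving out the first WT LPS library left 17 lower in B cells, 3 in alveolar macrophages, 5 in endothelial cells and 6 in classical monocytes. Without the first KO LPS library 18 were lower in B cells. Without the second KO LPS library 6 were lower in alveolar macrophages, 6 in endothelial cells and 5 in neutrophils, and without the second WT LPS library 14 in classical monocytes.

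In B cells the lower genes spanned complexes I (10 of 35), II (1 of 4), III (5 of 8), IV (8 of 14) and V (7 of 17). The 4 with the smallest p were Atp5b, Atp5md, Ndufa12 and Uqcrq, whose library values are given above. Each KO LPS library was below each WT LPS library for all 4, with differences of -0.74 ± 0.09 (SE, adjusted p = 3.8e-05), -0.83 ± 0.10 (SE, adjusted p = 5.45e-05), -0.82 ± 0.09 (SE, adjusted p = 2.87e-05) and -0.60 ± 0.09 (SE, adjusted p = 0.000273). The 4 calls held with plain library sizes, with DESeq2, without cells bearing neutrophil receptor UMIs and in cells with Xist alone, where the differences were -0.62, -0.73, -0.70 and -0.48. Cox7a2l was the 1 gene higher in KO B cells (0.44 ± 0.09 SE, adjusted p = 0.00304), and it was also higher in alveolar macrophages (0.19, adjusted p = 0.0374) and neutrophils (0.25, adjusted p = 0.0252).

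Alveolar macrophages had 8 of 35 complex I genes lower in KO, 4 of 8 of complex III, 7 of 16 of complex IV, 7 of 17 of complex V and 0 of complex II. Ndufb6, a membrane-arm subunit, was 86.4 and 84.8 CPM in the WT and KO vehicle libraries, 123 and 111 CPM in the WT LPS libraries and 94.5 and 90.9 CPM in the KO LPS libraries. Both KO LPS libraries were below both WT LPS ones and above the vehicle libraries (-0.34 ± 0.06 SE, adjusted p = 0.00177). Atp5b showed 361 (WT) and 361 CPM (KO) with vehicle, 509 and 494 CPM in WT with LPS, and 415 and 383 CPM in KO with LPS, the same order of pairs (-0.33 ± 0.06 SE, adjusted p = 0.00127). Ndufb2 differed by -0.35 ± 0.08 (SE, adjusted p = 0.00502) and Atp5md by -0.50 ± 0.11 (SE, adjusted p = 0.00515). In cells with Xist alone the 4 differences were -0.23, -0.19, -0.29 and -0.36, and none was called.

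In classical monocytes the lowest adjusted p values were those of Ndufs4 (-0.36 ± 0.06 SE, adjusted p = 0.000607), Cox7a2 (-0.32 ± 0.06 SE, adjusted p = 0.00201), Uqcrb (-0.26 ± 0.06 SE, adjusted p = 0.00542) and Atp5b (-0.28 ± 0.06 SE, adjusted p = 0.00696). In cells with Xist alone these were -0.19, -0.23, -0.19 and -0.32, not called. The 6 genes higher in KO there were Ndufb8, Ndufb9, Ndufb10, Ndufv3, Atp5g1 and Cox4i2, the last at 0.458 to 2.05 CPM under LPS. Neutrophil differences were led by Ndufs4 (-0.43 ± 0.08 SE, adjusted p = 0.000322), Uqcrb (-0.36 ± 0.08 SE, adjusted p = 0.00198), Ndufb11 (0.34 ± 0.08 SE, adjusted p = 0.00311) and Atp5e (-0.32 ± 0.07 SE, adjusted p = 0.00339). With plain library sizes they were -0.12, -0.06, 0.65 and -0.02. Ndufb11, which is X-linked like Ndufa1 and Cox7b, had 77.1 (WT) and 74.7 CPM (KO) with vehicle, 49.2 and 45.5 CPM in WT with LPS, and 59.3 and 60.98 CPM in KO with LPS in neutrophils, so the KO pair lay between the WT LPS pair and vehicle.

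Endothelial cells had Cox6c (-0.41 ± 0.09 SE, adjusted p = 0.00562), Uqcrb (-0.40 ± 0.08 SE, adjusted p = 0.00387), Cox4i2 (-0.58 ± 0.13 SE, adjusted p = 0.00727) and Ndufa12 (-0.44 ± 0.11 SE, adjusted p = 0.0143) lower in KO, and Ndufb10 higher (0.51 ± 0.14 SE, adjusted p = 0.0236). For Cox4i2, 73.3 and 64.4 CPM in the KO LPS libraries faced 92.5 and 114 CPM in the WT LPS libraries, but without cells bearing a neutrophil receptor UMI the difference was 0.04. The call was also lost without the second WT LPS library. In cells with Xist alone Cox6c, Uqcrb, Cox4i2 and Ndufa12 differed by -0.20, -0.22, -0.42 and -0.39, none called.

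Across types, 25 genes were below 0 in this contrast in all 8 types and 2, Atp5c1 and Ndufb11, above 0. Atp5md, Cox6c, Cox7a2, Cox7c and Uqcrb were called lower in 5 types each under TMM scaling. With plain library sizes 0 subunit genes were called lower in neutrophils, 1 in classical monocytes and 2 in endothelial cells. None of these genes was thus called lower in all the same types with plain library sizes. How many of all genes were below 0 or called lower across types was not counted, and the types came from the same libraries. Nos1 lies on chr5:117781032-117958840 (GRCm38), and 2 subunit genes lie within 20 Mb of it: Cox6a1 at 2.43 Mb and Atp5k at 9.35 Mb. Cox6a1, the ubiquitous form of subunit VIa, was lower in KO B cells (-0.45 ± 0.10 SE, adjusted p = 0.00431) and alveolar macrophages (-0.22, adjusted p = 0.0343), with no call elsewhere. Atp5k was lower in B cells (-0.29, adjusted p = 0.0333), alveolar macrophages (-0.25, adjusted p = 0.0362), classical monocytes (-0.30, adjusted p = 0.0105) and neutrophils (-0.30, adjusted p = 0.0127; 0.01 with plain library sizes).

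AA467197 was lower in KO LPS libraries in classical monocytes (-1.47 ± 0.06 SE, adjusted p = 1.01e-07), endothelial cells (-2.12 ± 0.09 SE, adjusted p = 3.06e-09), alveolar macrophages (-1.41 ± 0.07 SE, adjusted p = 2.77e-07), B cells (-1.496 ± 0.22 SE, adjusted p = 0.000201) and neutrophils (-0.89 ± 0.09 SE, adjusted p = 3.21e-07). It was not called in interstitial macrophages (-0.79 ± 0.23), T cells (-0.86 ± 0.19) or NK cells (-0.77 ± 0.26). In cells with Xist alone the classical monocyte difference was -0.27 and no longer called, whereas endothelial cells (-1.26), B cells (-1.44), alveolar macrophages (-0.96) and neutrophils (-0.66) were still called.

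The LPS response itself differed between genotypes for fewer genes. Its genotype difference was lower in KO for 22 of 78 subunit genes in B cells and higher for 1, where 6.16% and 4.51% of all genes were. Alveolar macrophages had 11 lower and 0 higher (5.2% and 4.57% of all genes), classical monocytes 6 and 0 (2.38% and 2.45%), endothelial cells 2 and 0 (1.16% and 2.58%) and neutrophils 1 and 1 (4.02% and 1.5%). T cells (0.0704% and 0.0604%), NK cells (0.0963% each way) and interstitial macrophages (0.0152% and 0%) had none by edgeR. Atp5md in B cells had the largest negative difference of those named (-1.40 ± 0.18 SE, adjusted p = 0.000496), followed by Ndufa12 (-1.04 ± 0.16 SE, adjusted p = 0.00174) and Atp5mpl (-0.80 ± 0.17 SE, adjusted p = 0.0077), a small membrane-sector subunit at 107 (WT) and 143 CPM (KO) with vehicle, 273 and 239 CPM in WT with LPS, and 195 and 200.02 CPM in KO with LPS. Each genotype had 1 vehicle library, so this test assumes that vehicle libraries vary like the LPS ones. DESeq2 called 8 in B cells and 3 in alveolar macrophages lower and 0 in the other types. Scaled by plain library size, 13 were lower and 1 higher in B cells, 4 and 0 in alveolar macrophages, 0 and 18 in neutrophils, 0 and 2 in classical monocytes and 0 and 0 in endothelial cells. Without cells bearing a neutrophil receptor UMI 18 were lower in B cells, 8 in alveolar macrophages, 1 in endothelial cells and 0 in classical monocytes. Alveolar macrophages had 1 lower without the second KO LPS library, 3 without the first WT LPS library and 22 without the second. B cells had 13 lower without the first KO LPS library and 12 without the first WT LPS library, classical monocytes 15 without the first KO LPS library, and endothelial cells 7 without the second WT LPS library and 1 without the second KO LPS library.

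Among vehicle libraries, with 1 per genotype and no test, few subunit genes differed by 1.5-fold or more between KO and WT. There were none of 76 in B cells, T cells, NK cells and classical monocytes, where between 2.96% and 6.09% of all genes passed that fold in either direction, and none of 78 in alveolar macrophages (2.64% higher, 1.77% lower). Interstitial macrophages had 5 of 62 higher in KO (8.37% of all genes), all on small counts: Ndufc1, Ndufs7, Uqcr11, Atp5md and Atp5mpl, with 16 to 34 UMIs in WT and 57 to 79 in KO. In neutrophils Ndufa12 was higher (39 against 22 UMIs) and Atp5o lower (37 against 56), where 10.1% and 3.61% of all genes were. In endothelial cells Ndufa4l2 was lower (99 against 134 UMIs), with 3.51% of all genes lower.

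Between cell types, subunit genes were higher in alveolar macrophages than in neutrophils of the same library for 58 of 79 and lower for 11 (45.6% and 34.7% of all genes). The median difference was 0.72 on the log2 scale, beside 0.30 for all genes. Complex I had 27 higher and 4 lower of 35, complex III 7 and 0, complex IV 11 and 3 of 15, complex V 11 and 3 and complex II 2 and 1. The largest were Cox6b2 (4.26 ± 0.21), Cox7a1 (3.07 ± 0.23), Ndufa5 (2.38 ± 0.21), Atp5g1 (2.31 ± 0.12) and Atp5g2 (2.18 ± 0.12). In neutrophils Cox6b2 and Cox7a1 each held under 10 UMIs over both vehicle libraries, so their vehicle values there were near the floor. Ndufb9 (-1.09 ± 0.11), Ndufa7 (-0.98 ± 0.12), Cox8a (-0.93 ± 0.12) and Cox5b (-0.72 ± 0.14) were lower under TMM, but at 0.14, 0.25, 0.30 and 0.50 with plain library sizes, where 74 genes were higher and 0 lower. Cox4i2 was also lower (-1.57 ± 0.48), at 1.30 CPM or less in every library of both types.

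A share of all UMIs divides by the total as plain library sizes do, so it is not independent of that scaling. By this share, subunit transcripts made up 1.06 and 0.919% of neutrophil UMIs with vehicle. With LPS they made up 0.421 and 0.432% in WT and 0.484 and 0.482% in KO. LPS libraries were thus at 0.460 of the vehicle share in neutrophils, without overlap. Endothelial cells went from 1.52 and 1.57% to 1.05 and 0.986% in WT and 1.03 and 0.993% in KO, a ratio of 0.657, and their complex I share had a ratio of 0.560. B cells went the other way, from 1.36 and 1.46% to 1.90 and 1.85% in WT and 1.68 and 1.72% in KO, a ratio of 1.27. In the KO pair the B cell share was 1.70% ± 0.03 (SD, n = 2) and in the WT pair 1.88% ± 0.04 (SD, n = 2). In neutrophils the KO pair had the higher share, 0.483% against 0.426%, and likewise in classical monocytes, 1.85% against 1.77%. The LPS to vehicle ratio was closer to 1 in alveolar macrophages (1.04), T cells (1.05) and NK cells (1.02), as in classical monocytes (0.898) and interstitial macrophages (0.840). These ratios come without a test. Without the 50 highest genes the ratio was 0.587 in neutrophils, 0.671 in endothelial cells and 1.16 in B cells.

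**Figure D5:**
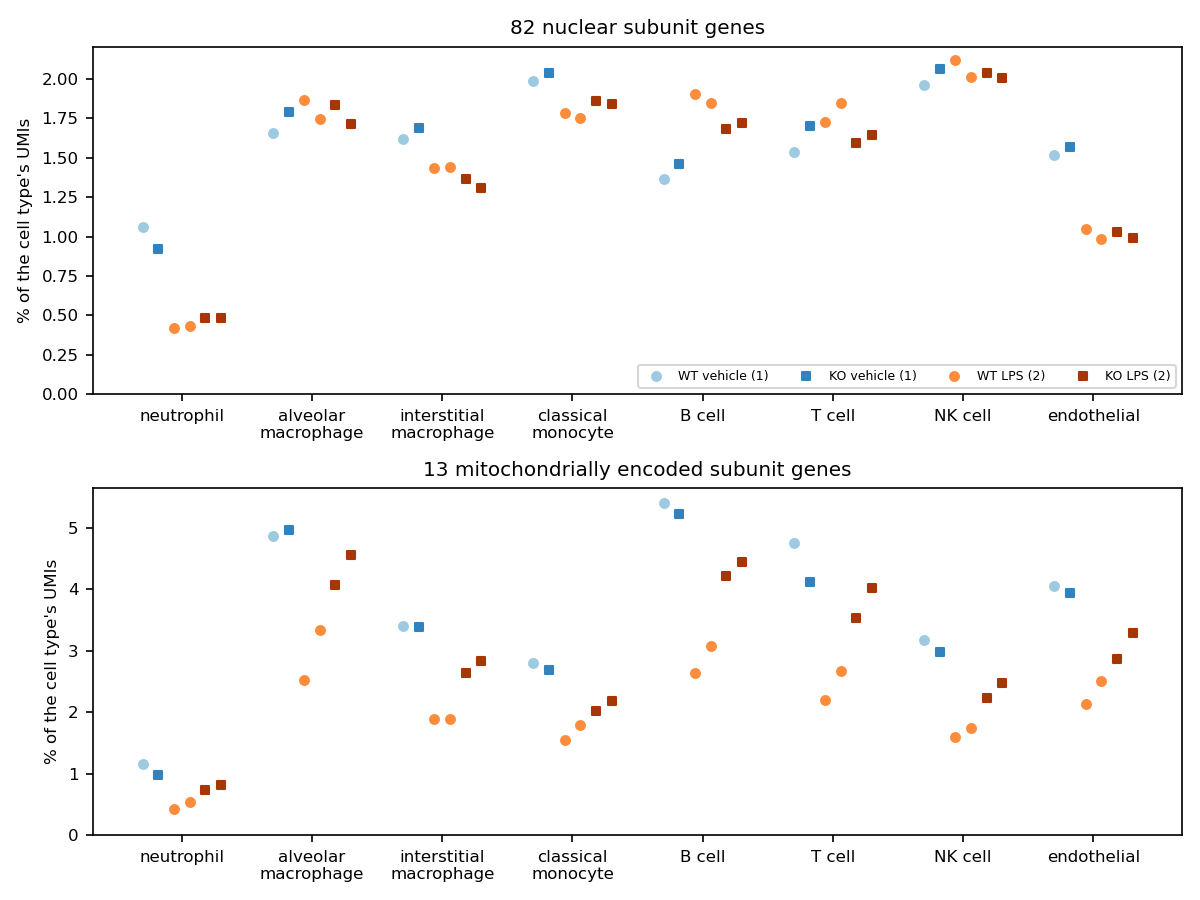
Percent of a cell type's UMIs in nuclear subunit genes and in the 13 mitochondrially encoded subunit genes, for each library of 8 gated cell types; circles are WT and squares KO, blue vehicle and orange to brown LPS. Neutrophils hold the lowest nuclear share, 0.919 to 1.06% with vehicle and 0.421 to 0.484% with LPS.

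Of the 13 subunits encoded by mitochondrial DNA, some fell after LPS in 6 cell types. There 9 fell in B cells and in alveolar macrophages, 8 in classical monocytes, 7 in T cells, 6 in NK cells and 4 in interstitial macrophages, and none rose in these types. In neutrophils 11 and in endothelial cells 2 rose under TMM, but with plain library sizes 12 and 13 fell there and 0 rose. Their share of neutrophil UMIs was 0.983 to 1.15% with vehicle and 0.428 to 0.810% with LPS, a ratio of 0.589, and in endothelial cells the ratio was 0.676. Their share of alveolar macrophage UMIs was 4.86 and 4.96% with vehicle, 2.52 and 3.33% in WT with LPS and 4.07 and 4.56% in KO with LPS. Vehicle shares were the highest, and the KO LPS libraries exceeded the WT LPS libraries. Between genotypes under LPS they were higher in KO for 11 of 13 in B cells, alveolar macrophages and neutrophils, 8 in NK cells, 5 in classical monocytes and endothelial cells, 4 in T cells and 0 in interstitial macrophages, and lower for none. The mitochondrial share of UMIs was also used to choose cells.

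Under TMM scaling, of 44 assembly factors, 20 rose and 9 fell in B cells after LPS (43 tested), 12 and 7 in classical monocytes, 13 and 8 in alveolar macrophages, 12 and 7 in neutrophils, 10 and 13 in endothelial cells, 8 and 6 in NK cells, 5 and 6 in T cells and 1 and 3 in interstitial macrophages. Cox17, the copper chaperone of complex IV, rose in all 8 under TMM scaling, as used for all changes in this paragraph. In neutrophils it was 142 (WT) and 239.6 CPM (KO) with vehicle, 1207 and 1031 CPM in WT with LPS, and 744 and 644 CPM in KO with LPS, a rise of 2.26 ± 0.10, and its rise was 2.28 ± 0.21 in interstitial macrophages and 1.80 ± 0.08 in classical monocytes. In KO LPS libraries Cox17 was lower in 6 types, with a difference of -0.74 ± 0.07 (SE, adjusted p = 1.11e-05) in alveolar macrophages and -0.69 ± 0.09 (SE, adjusted p = 9.92e-06) in neutrophils. Cycs, which encodes cytochrome c, rose in all 8 as well, from 0.71 ± 0.06 in alveolar macrophages to 2.74 ± 0.14 in neutrophils, and was lower in KO in 5 types (-0.79 ± 0.09 SE, adjusted p = 4.55e-05 in B cells). Of the 12 carrier and biogenesis genes to which Cycs belongs, 4 rose and 1 fell in alveolar macrophages, 3 and 2 in B cells, and 3 and 1 in neutrophils.

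Genes of the tricarboxylic acid cycle (14) rose and fell in numbers of 7 and 0 in alveolar macrophages, 6 and 1 in B cells, 5 and 4 in endothelial cells, 4 and 5 in classical monocytes, 3 and 2 in NK cells, 3 and 6 in neutrophils, 1 and 3 in interstitial macrophages and 0 and 1 in T cells. Glycolysis genes (16) rose and fell in numbers of 13 and 2 in classical monocytes, 13 and 1 in neutrophils, 10 and 3 in B cells, 10 and 1 in alveolar macrophages, 10 and 3 in endothelial cells, 8 and 3 in NK cells, 8 and 0 in T cells and 4 and 3 in interstitial macrophages. Between genotypes 11 glycolysis genes were lower in KO B cells and 9 in KO alveolar macrophages with 0 higher, while in classical monocytes 11 were higher and 1 lower. Against neutrophils, alveolar macrophages had 12 of 14 cycle genes higher and 0 lower, and 2 of 16 glycolysis genes higher and 12 lower. All these list counts are under TMM scaling, and counts with plain library sizes are not given. For subunit genes, most rises in neutrophils and endothelial cells changed direction with plain library sizes, as given above. The shares of all genes that rose and fell stand with the subunit genes above.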

How the data were processed

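Single-cell UMI count matrices were deposited per library; per the submitters' processing notes Cell Ranger 6.1.0, Seurat 4.1.0, R 4.1.3 and mm10 were used, and the annotation release is not stated. The deposited counts were filtered and gated on markers (no doublet caller; the lead of 2 markers stands in for it), summed per library and cell type, and fitted over the 4 groups with edgeR 4.0.16 in R 4.3.3 (TMM scaling, filterByExpr, quasi-likelihood test with Benjamini-Hochberg adjustment, 2 residual degrees of freedom). DESeq2 1.42.0, plain library sizes, other gates and leaving out libraries were alternatives. Alveolar macrophages and neutrophils were compared with the library as a block. The subunit genes, the lists and the markers were chosen with earlier results of these data known.

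Named genes were, per cell type, the 3 largest rises and 3 largest falls under LPS among called genes with at least 50 CPM in the higher group, up to 4 by p between genotypes, up to 3 by p in the genotype difference of the LPS response, the 5 largest differences each way between alveolar macrophages and neutrophils, and the isoform pairs, complex II, catalytic subunits and genes within 20 Mb of Nos1. Other genes named were chosen after their values were seen. Gene positions came from the GENCODE annotation of GRCm38 and promoter windows from RefSeq (GRCm38.p6). A reference list of genes held 82 of 82 subunit genes and 32158 of 32285 gene identifiers. The fitting was tested on simulated data, where the larger changes were recovered least often in interstitial macrophages and neutrophils.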

Additional observations from a re-analysis of the deposited data

Results flagged for a closer look

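The following subunit genes were singled out because their LPS response differed between genotypes by edgeR's test of that difference (Benjamini-Hochberg adjusted p under 0.05), with 1 vehicle library per genotype. In B cells the log2 response of Atp5md was 2.08 in WT and 0.68 in KO, a difference of -1.40 ± 0.18 (SE, adjusted p = 0.000496). Ndufa12 differed there by -1.04 (1.95 in WT, 0.91 in KO; adjusted p = 0.00174) and Atp5mpl by -0.80 (1.26 and 0.46; adjusted p = 0.0077).

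In alveolar macrophages Atp5md rose from 119 to a mean of 254 CPM in WT and from 159 to 179 CPM in KO, a difference of -0.92 ± 0.19 (SE, adjusted p = 0.0111). Ndufb2 differed by -0.59 (0.62 in WT, 0.02 in KO; adjusted p = 0.0161) and Ndufa1, an X-linked subunit gene, by -0.61 (0.73 and 0.12; adjusted p = 0.0172). In classical monocytes Atp5k differed by -0.81 (1.18 and 0.37; adjusted p = 0.0269), Atp5j2 by -0.60 (0.77 and 0.18; adjusted p = 0.013) and Cox7c by -0.51 (0.66 and 0.14; adjusted p = 0.0289). Without cells bearing a neutrophil receptor UMI these 3 were -0.90, -0.68 and -0.41 and no longer called (adjusted p = 0.112, 0.128 and 0.423 by edgeR). In endothelial cells Cox7c differed by -0.61 (0.89 and 0.27; adjusted p = 0.041) and Atp5e by -0.60 (0.32 and -0.28; adjusted p = 0.0489); without those cells the Cox7c call was lost (-0.58, adjusted p = 0.0815).

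In neutrophils Atp5e differed by -0.52 (0.29 in WT, -0.23 in KO; adjusted p = 0.0439), which was -0.01 with plain library sizes. Ndufv1 there differed by 1.81 ± 0.49 (SE, adjusted p = 0.0369), from 14.0 to 6.81 CPM in WT and from 3.90 to 6.75 CPM in KO. The log2 response was -1.04 in WT and 0.79 in KO, so the difference rested on the 1 vehicle library of each genotype, at low CPM. DESeq2 called Atp5md, Ndufa12 and Atp5mpl in B cells and Ndufa1 in alveolar macrophages, and not the other 9.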

How the results depend on the processing

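Summed over 8 cell types, 272 calls higher and 80 lower after LPS became 131 and 219 with plain library sizes and 208 and 56 with DESeq2, and 195 to 268 and 67 to 83 when a library was left out. Between genotypes under LPS, 16 higher and 105 lower became 1 and 29 with DESeq2, 73 and 26 with plain library sizes, 10 and 69 without cells bearing a neutrophil receptor UMI and 3 and 14 in cells with Xist alone; the higher count was 9 with RLE scaling and 10 without doublet removal, and leaving out a library gave 8 to 16 higher and 41 to 102 lower. The genotype difference of the LPS response (2 higher, 42 lower) became 0 and 11 with DESeq2, 21 and 17 with plain library sizes and 2 to 4 and 24 to 63 with a library left out, and 65 lower without the low-count filter. The cell choices with neutrophil receptors and Xist were added after seeing the data. Replicate numbers did not pair the libraries (correlations of replicate deviations from -0.084 to 0.065), and with the replicate number as a block the genotype difference had 5 higher and 63 lower. Of alveolar macrophages against neutrophils, 0 were lower with plain library sizes, and leaving out a library gave 51 to 58 higher and 8 to 11 lower.

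The UMI share ratio of LPS to vehicle was 0.508 in neutrophils and 0.682 in endothelial cells without doublet removal, and without the 50 highest genes 0.587 in neutrophils, 1.16 in B cells and, changing side, 0.969 in T cells. Beside the sign changes with plain library sizes whose values stand in the results, signs turned for Cox4i2 between genotypes in endothelial cells (0.039 without neutrophil receptor UMIs), for Cox6a1 in classical monocytes (0.0526 with plain library sizes, and -0.2175 to 0.0004 with a library left out, the latter without the second KO LPS library), endothelial cells (0.0637 with Xist alone) and neutrophils (0.24 with plain library sizes, 0.0922 with Xist alone), and between alveolar macrophages and neutrophils with plain library sizes for Cox5b (0.50), Cox8a (0.30), Ndufa7 (0.25) and Ndufb9 (0.14). The cause was not tested. Interstitial macrophages, with 39 cells in the smallest library, limit what could be detected there.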
